A study of Mus musculus with 10 samples.

Results

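Vascular endothelium was represented by 10 marker genes, namely Pecam1, Cdh5, Kdr, Flt1, Tek, Tie1, Egfl7, Fabp4, Eng and Vwf. They were chosen by gene symbol in the platform annotation, and all 10 were measured, through 11 of 22393 array features and as 10 of 16504 genes. RNA from the lateral and the septal wall of the left ventricle of the same mouse heart was hybridised together on 2-colour Agilent arrays. There were 4 dyssynchronous hearts, numbered 1, 3, 4 and 5, in which an implanted pacemaker had made the ventricle contract out of phase. The control was 1 pool that combined wall RNA of synchronous mice. Every wall pair was hybridised on 2 arrays, the second with Cy5 and Cy3 swapped, so 10 RNA samples gave 10 arrays. The labels state neither strain, age, sex nor length of pacing, nor the number of mice in the pool.

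Endothelial cells line every vessel and the inner surface of the heart chambers, and capillary endothelium makes up much of the non-muscle cell population of the ventricle. Vascular endothelial growth factors act through the receptor kinases Kdr and Flt1, and angiopoietins act through Tek, with Tie1 as its partner. Pecam1 and Cdh5 hold neighbouring cells together, and Egfl7, Eng, Fabp4 and Vwf serve vessel formation, BMP signalling, fatty acid transport and haemostasis. In bulk wall samples, fewer endothelial cells and less RNA per endothelial cell cannot be told apart.

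The deposited numbers, read as log10 of Cy5 over Cy3, are given here on the log2 scale as lateral over septal wall. Genes are called lateral where this ratio is above 0 and septal where it is below 0. The base and direction of the deposited ratio are likely and not stated. The pool labels PNS and PNL were read as septal and lateral from the letters used for the hearts. Ratios within an array give no expression level, so the amount of endothelial RNA in either wall was not measured and the genes cannot be ranked by abundance.

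All starts of Egfl7 and Eng are shown because these were the genes with a lateral ratio in all 4 hearts for which the RefSeq promoter table (GRCm38.p6) held a start. Each runs 5′ to 3′, 250 bases before to 50 bases after the start, on the plus strand. Capitals mark AGGAAG or its complement CTTCCT, a sequence of the kind bound by ETS factors, which are used widely by endothelial genes.
Egfl7, chr2:26580833-26581132: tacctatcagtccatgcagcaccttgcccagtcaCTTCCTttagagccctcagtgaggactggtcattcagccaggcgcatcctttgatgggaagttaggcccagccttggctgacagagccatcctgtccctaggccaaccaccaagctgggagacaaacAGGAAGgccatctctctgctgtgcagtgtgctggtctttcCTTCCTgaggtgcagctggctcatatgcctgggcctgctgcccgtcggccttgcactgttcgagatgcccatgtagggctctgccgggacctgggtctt
Egfl7, chr2:26583615-26583914: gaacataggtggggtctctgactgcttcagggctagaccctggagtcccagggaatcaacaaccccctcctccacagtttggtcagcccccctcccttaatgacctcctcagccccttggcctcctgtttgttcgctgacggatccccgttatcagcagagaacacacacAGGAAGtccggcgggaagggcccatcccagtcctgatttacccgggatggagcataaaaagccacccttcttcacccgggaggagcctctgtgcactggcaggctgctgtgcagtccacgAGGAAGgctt
Egfl7, chr2:26586386-26586685: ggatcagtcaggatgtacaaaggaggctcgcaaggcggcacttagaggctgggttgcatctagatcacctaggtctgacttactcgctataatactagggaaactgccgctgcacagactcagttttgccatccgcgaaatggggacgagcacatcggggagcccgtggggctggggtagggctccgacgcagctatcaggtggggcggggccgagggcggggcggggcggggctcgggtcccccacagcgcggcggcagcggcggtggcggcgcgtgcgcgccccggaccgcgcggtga
Eng, chr2:32646345-32646644: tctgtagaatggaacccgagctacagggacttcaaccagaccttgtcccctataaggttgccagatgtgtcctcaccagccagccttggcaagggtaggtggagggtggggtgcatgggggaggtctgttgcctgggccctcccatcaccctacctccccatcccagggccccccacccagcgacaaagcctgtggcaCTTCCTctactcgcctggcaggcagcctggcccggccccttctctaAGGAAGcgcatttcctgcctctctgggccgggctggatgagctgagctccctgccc
AGGAAG was searched on both strands. The table held 8 starts of 6 of the genes, and 5 starts of 4 genes had at least 1 match (Egfl7, Eng, Flt1 and Tie1), while the last Egfl7 start shown and the starts of Kdr and Tek had 0. Of all 32851 promoters of the same length, 35.4% had a match. The shorter core GGAA, which AGGAAG contains, was in 96.0% of all promoters and does not set these genes apart.

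The endothelial genes did not share a direction between the walls. Their median ratio was 0.08, 0.05, 0.03 and 0.0036 in hearts 1, 3, 4 and 5, and 0.03 in the pool, against medians of all genes between -0.001 and 0.00. Of the 10 genes, 8 were lateral in heart 1, while 5 were lateral in each of hearts 3, 4 and 5 and 5 in the pool. Across the hearts the mean ratio per gene ran from -0.16 for Cdh5 to 0.44 for Pecam1, with a median of 0.02 over the 10 genes and 0.0026 over all genes.

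In limma's moderated test of the 4 hearts against 0, adjusted by Benjamini-Hochberg over all genes, 0 of the 10 genes passed an adjusted p of 0.05, where 0% of all genes passed. Their adjusted p-values were 0.797 to 0.839. At an unadjusted p under 0.05 there were 2 of them, Egfl7 and Fabp4, and 934 of 16504 genes, against 825.2 by chance. The exact sign-flip test over 4 hearts cannot go below a two-sided p of 0.125. The precision of each ratio is limited by the small number of arrays.

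Without regard to size, 4 of the 10 genes were lateral in all 4 hearts (Pecam1, Egfl7, Fabp4 and Eng), where 7.8% of all genes were. Vwf, averaged over its features, was the 1 septal in all 4, where 7.63% of all genes were. Taken array by array, 0 of the 10 were lateral on all 8 heart arrays, where 0.648% of all genes were, and 0 were septal on all 8, where 0.685% were. None was beyond 1.2-fold in every heart, 0 laterally and 0 septally, against 0.267% and 0.43% of all genes. The count of 4 lateral genes depended on the dye: it was 1 with the Cy5-lateral arrays alone (Fabp4) and 4 with the Cy3-lateral arrays alone (Cdh5, Flt1, Egfl7 and Eng), of which 2, Egfl7 and Eng, were shared with the 4 from all arrays.

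**Figure D1:**
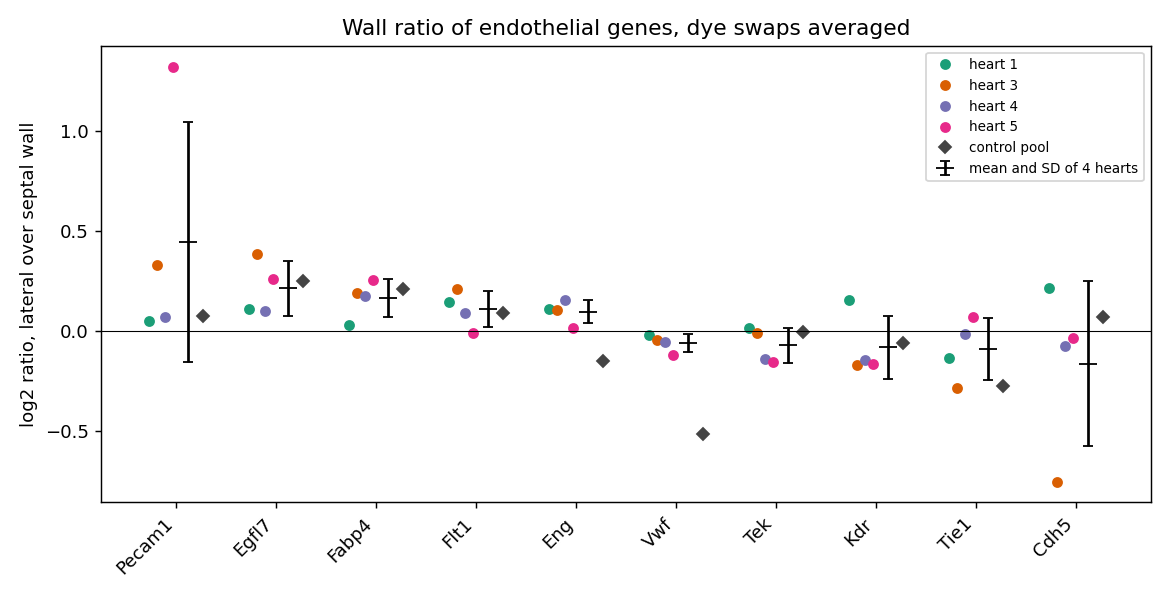
Log2 ratio of the lateral over the septal wall (y axis) of each endothelial gene (x axis, in order of the mean), with dye swaps averaged. Circles are the 4 dyssynchronous hearts, the black mark is their mean with SD, and the diamond is the control pool; all values lie within 0.39 of 0 apart from Pecam1 in heart 5, Cdh5 in heart 3 and Vwf in the pool.

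Among the adhesion molecules, Pecam1 (CD31) had ratios of 0.05, 0.33, 0.07 and 1.32 in hearts 1, 3, 4 and 5, against 0.07 in the pool. Heart 5 stood far above the others, and the other hearts lay on both sides of the pool. Its mean of 0.44 ± 0.60 (SD, n = 4 hearts) had an adjusted p of 0.797 in limma. It rested on 1 array: the Cy5-lateral array of heart 5 read 2.43 and its dye swap 0.21. Without heart 5 the mean was 0.15.

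Cdh5, VE-cadherin of the endothelial adherens junction, had ratios of 0.21, -0.75, -0.08 and -0.04 in hearts 1, 3, 4 and 5, against 0.07 in the pool. Heart 1 was lateral and the others were septal, and the mean of -0.16 ± 0.41 (SD, n = 4 hearts) had an adjusted p of 0.839 in limma. The dye swaps disagreed in sign in all 4 hearts and in the pool; in heart 3 they read -1.70 and 0.20. On Cy5-lateral arrays the ratio averaged -0.94, and on Cy3-lateral arrays 0.62.

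Of the growth factor receptors, Kdr (VEGF receptor-2) had ratios of 0.15, -0.17, -0.15 and -0.17 in hearts 1, 3, 4 and 5, against -0.06 in the pool. Heart 1 was lateral while hearts 3, 4 and 5 were close together on the septal side, with the pool between. The mean was -0.08 ± 0.16 (SD, n = 4 hearts) and the adjusted p in limma 0.826.

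Flt1 (VEGF receptor-1), which binds the growth factor tightly and limits its access to Kdr, had ratios of 0.14, 0.21, 0.09 and -0.01 in hearts 1, 3, 4 and 5, against 0.09 in the pool. It was lateral in 3 hearts and the pool lay within their range. The mean was 0.11 ± 0.09 (SD, n = 4 hearts), with an adjusted p of 0.797 in limma.

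Tek (Tie2) had ratios of 0.01, -0.01, -0.14 and -0.16 in hearts 1, 3, 4 and 5, against -0.01 in the pool, and averaged -0.07 ± 0.09 (SD, n = 4 hearts). Tie1 had ratios of -0.13, -0.29, -0.01 and 0.07 in the hearts in the same order, against -0.28 in the pool, and averaged -0.09 ± 0.16 (SD, n = 4 hearts). For both genes the hearts spread across 0, the pool fell within the hearts' range, and the adjusted p in limma was 0.816. Tie1 was septal on 6 of 8 heart arrays and Tek on 4 of 8.

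Egfl7, a protein secreted by endothelial cells whose gene also carries the microRNA miR-126, had ratios of 0.11, 0.38, 0.10 and 0.26 in hearts 1, 3, 4 and 5, against 0.25 in the pool. It was lateral in every heart, in the pool and on 7 of 8 heart arrays, and the pool lay within the hearts' range. The mean of 0.21 ± 0.14 (SD, n = 4 hearts), a fold of 1.16, had an unadjusted p of 0.0375 and an adjusted p of 0.797 in limma.

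Fabp4, which carries fatty acids through capillary endothelium and is also an abundant protein of adipocytes, had ratios of 0.03, 0.19, 0.17 and 0.26 in hearts 1, 3, 4 and 5, against 0.21 in the pool. It too was lateral in every heart, in the pool and on 7 of 8 heart arrays. On Cy5-lateral arrays it averaged 0.29 and on Cy3-lateral arrays 0.03. The mean of 0.16 ± 0.09 (SD, n = 4 hearts) had an unadjusted p of 0.0496 and an adjusted p of 0.797 in limma. Of the 10 adipocyte markers measured, 0 were lateral in all 4 hearts and their median was -0.04. The part of adipocytes in the Fabp4 ratio was not tested.

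Eng (endoglin), the co-receptor through which endothelial cells bind BMP ligands such as Gdf2, had ratios of 0.11, 0.11, 0.15 and 0.02 in hearts 1, 3, 4 and 5, against -0.15 in the pool. All 4 hearts were lateral and above the pool, which was septal. It was the 1 gene of the 10 with all hearts on one side of 0 and the pool on the other, where 5.88% of all genes had that pattern. The mean was 0.10 ± 0.06 (SD, n = 4 hearts), with an adjusted p of 0.797. The difference between hearts and pool was 0.25, with an unadjusted p of 0.0947 and an adjusted p of 1.00 in limma. The pool's own arrays read -0.39 and 0.08, so its sign rested on the Cy5-lateral array. In the hearts, too, Eng averaged -0.02 on Cy5-lateral arrays and 0.21 on Cy3-lateral arrays.

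Vwf, von Willebrand factor, is made by endothelium, endocardium and megakaryocytes and tethers platelets to an injured vessel wall. Its 2 features disagreed and are given apart. Feature 10802 had ratios of 0.39, 0.19, 0.17 and 0.17 in hearts 1, 3, 4 and 5, against -0.13 in the pool. It was lateral on all 8 heart arrays, at 0.11 to 0.51, and septal on both pool arrays, at -0.12 and -0.14.

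Of all 18218 features with 1 gene symbol, 0.681% were lateral on all 8 heart arrays, 17.9% had all 4 hearts above the pool and 0.0988% were lateral on all 8 heart arrays and septal on both of the pool. The last pattern was not among the planned rules and is the one that feature 10802 showed, so its share is a description and no test. The mean of feature 10802 was 0.23 ± 0.11 (SD, n = 4 hearts), a fold of 1.17. In limma over features its unadjusted p was 0.0184 and its adjusted p 0.806, and the difference from the pool was 0.36, with an unadjusted p of 0.0574 and an adjusted p of 1.00.

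Feature 1608 had ratios of -0.43, -0.29, -0.28 and -0.42 in hearts 1, 3, 4 and 5, against -0.90 in the pool. It was septal in all 4 hearts, as were 7.35% of all features, and each heart was again above the pool. However, 4 of its 10 array values were exactly 0, and the rest ran from -1.81 to 0.79, so that the averages of heart 1, heart 4, heart 5 and the pool each combined a 0 with 1 septal reading. The mean was -0.35 ± 0.08 (SD, n = 4 hearts), with an unadjusted p of 0.00234 and an adjusted p of 0.805 in limma over features. The difference from the pool was 0.55, with an unadjusted p of 0.00958 and an adjusted p of 0.79 in limma. These values rest on the averages that include a 0. Averaged over both features, Vwf had ratios of -0.02, -0.05, -0.06 and -0.12 in hearts 1, 3, 4 and 5, against -0.52 in the pool, which describes neither feature.

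**Figure D2:**
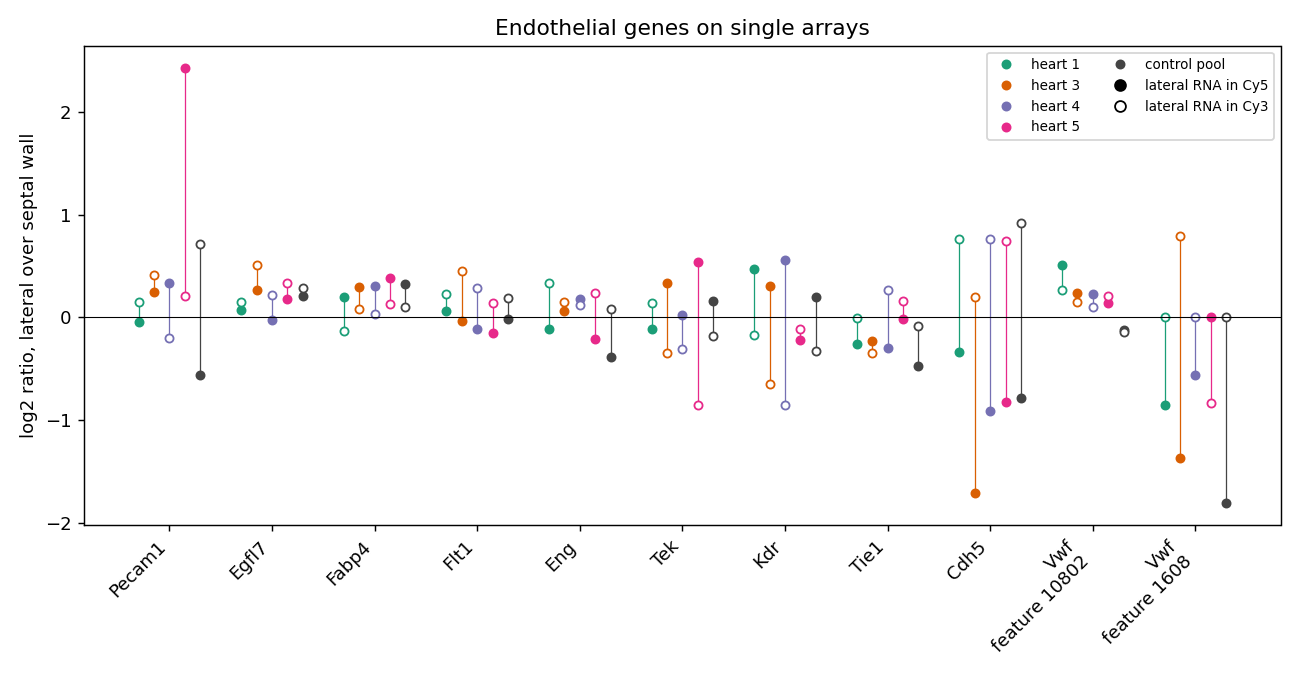
Log2 ratio of the lateral over the septal wall (y axis) on each of the 10 arrays for every endothelial feature (x axis). Colours mark the 4 hearts and the control pool, filled circles have lateral RNA in Cy5, open circles have it in Cy3, and a line joins the dye swaps; swaps lie close together for Vwf feature 10802 and Egfl7 and far apart for Cdh5, Kdr and Vwf feature 1608.

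Neighbours in the order of mean ratios were mostly not separated. From Pecam1 downwards through Egfl7, Fabp4, Flt1, Eng, Vwf, Tek, Kdr, Tie1 and Cdh5, the step to the next gene exceeded the smaller SD of the pair for Pecam1 over Egfl7 and for Eng over Vwf alone. The first of these steps depended on heart 5. The second used the average of the 2 Vwf features, and feature 10802 alone, at 0.23, lay above Eng, at 0.10. Over the hearts the median SD of the ratio was 0.12 for the 10 genes and 0.23 for all genes. The median size of the ratio, regardless of sign, was 0.10 for the 10 genes and 0.09 for all genes.

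Against the control pool, limma called 0 of the 10 genes, where 0% of all genes passed. The adjusted p-values in limma were 0.898 to 1.00. Vwf, as the average of both features, was the 1 gene of them at an unadjusted p under 0.05 in limma (0.0122), as were 783 of 16504 genes, against 825.2 by chance. All 4 hearts were above the pool for 2 of the 10 genes (Eng and Vwf), where 17.7% of all genes had that pattern, and below it for 0, where 18.1% had. The hearts' mean and the pool were on the same side of 0 for 8 of the 10 genes. The share among all genes was not counted, so whether these genes differ from others in this is not known. Vwf was among the 8 as the average of both features, while its feature 10802 had the hearts lateral and the pool septal. The pool was a single sample, assumed in the test to vary like 1 heart. With the pool labels read the other way round, the difference would be -0.06 for Eng and -0.58 for Vwf.

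For most of these genes the dye term was larger than the wall ratio. The mean of the deposited ratio over dye swaps, which cancels any wall effect, was larger in size than the wall ratio for 7 of the 10 genes, as for 66.7% of all genes. Cdh5 had the largest, at -0.78 ± 0.17 (SD, n = 4 hearts), since its Cy5 signal was below Cy3 on every array of the hearts and the pool, whichever wall was in Cy5. Kdr followed at 0.36 ± 0.32 and Pecam1 at 0.30 ± 0.56 (SD, n = 4 hearts).

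In limma 0 of the 10 genes passed for the dye, where 0% of all genes did, with adjusted p-values of 0.174 to 0.531. The genes at an unadjusted p under 0.05 were 3 of the 10 (Cdh5, Flt1 and Fabp4) and 3140 of 16504. If the deposited values had already been turned to lateral over septal, these dye values would be the wall ratios, and Cdh5 would be septal on all 10 arrays. On that reading Egfl7 would be at -0.09 ± 0.04 and Fabp4 at 0.13 ± 0.02 (SD, n = 4 hearts). By arithmetic, a dye term larger than the wall ratio gives the hearts' mean ratio opposite signs in the Cy5-lateral and the Cy3-lateral arrays. This was so for the same 7 of the 10 genes and is no second result. Pecam1, Egfl7 and Fabp4 had the same sign in both. Of the features and genes named here, Vwf feature 10802, Myl7, Higd1b, Kcnj8 and Notch3 had a deposited sign that followed the wall label on all 8 heart arrays. Signed by the wall label, the swaps of Myl7 read -5.32 and -5.05 in heart 1 and -3.45 and -3.27 in heart 3. In heart 4 they read -3.75 and -3.32, and in heart 5 -6.08 and -6.11. As deposited, Myl7 thus changed sign between swaps at nearly equal size, whereas already turned values would keep 1 sign.

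**Figure D3:**
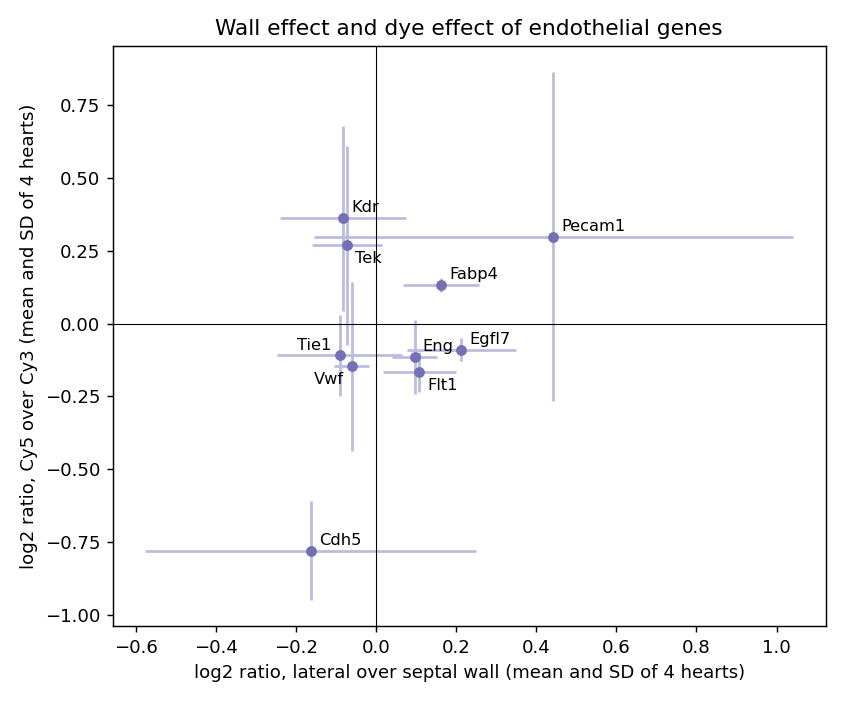
Mean log2 ratio of the lateral over the septal wall (x axis) against the mean log2 ratio of Cy5 over Cy3 (y axis) for each endothelial gene, both as mean and SD of the 4 dyssynchronous hearts. Cdh5 lies at -0.78 on the dye axis, and Egfl7 lies to the right of 0 with the dye effect nearest to 0, at -0.09.

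Other genes of endothelium and its signals were taken from lists by role. Of 27 other vascular endothelial markers measured, 5 were lateral and 0 septal in all 4 hearts, with a median of 0.03, and 0 passed in limma. Procr, the endothelial receptor for protein C, had ratios of 0.45, 0.38, 0.08 and 0.46 in hearts 1, 3, 4 and 5, against -0.13 in the pool. It averaged 0.68 on Cy5-lateral arrays and 0.0042 on Cy3-lateral arrays. Ptprb, the phosphatase that restrains Tek and Cdh5 signalling, averaged 0.15 ± 0.07, and Robo4, a guidance receptor of endothelium, averaged 0.12 ± 0.07 (SD, n = 4 hearts), against -0.10 and 0.15 in the pool. For Procr and Ptprb all 4 hearts were lateral and the pool septal. Ptprb averaged 0.26 on Cy5-lateral arrays and 0.04 on Cy3-lateral arrays.

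Ligands came next. Of 12 vascular growth factor and angiopoietin ligands, 0 were lateral and 3 septal in all 4 hearts, with a median of -0.04 and 0 passing in limma. Hbegf, a heparin-binding ligand of the EGF receptor, had ratios of -0.17, -0.37, -0.22 and -0.29 in hearts 1, 3, 4 and 5, against -0.08 in the pool. Vegfc, the ligand of lymphatic endothelium, averaged -0.42 ± 0.42 and Fgf2 averaged -0.31 ± 0.43 (SD, n = 4 hearts), with a wide spread between hearts. In the pool Vegfc read -0.07 and Fgf2 0.37. On Cy5-lateral and Cy3-lateral arrays Vegfc averaged -0.0065 and -0.84, and Fgf2 0.25 and -0.87.

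Of 12 co-receptors and signal partners, 3 were lateral and 1 septal in all 4 hearts, with a median of 0.10. Aplnr, the apelin receptor, averaged 0.19 ± 0.15 (SD, n = 4 hearts), against 0.11 in the pool. Plcg1, the phospholipase recruited by Kdr, averaged -0.18 ± 0.16 (SD, n = 4 hearts), against 0.22 in the pool. On Cy5-lateral and Cy3-lateral arrays Aplnr averaged 0.34 and 0.03, and Plcg1 -0.33 and -0.03. Of 15 genes of endothelial TGF-beta and BMP signalling, 1 was lateral and 1 septal in all 4 hearts, with a median of -0.01. Bmp6 averaged -0.31 ± 0.11, the BMP target Id1 averaged 0.13 ± 0.07 and Gdf2, a ligand of the Eng receptor complex, averaged -0.20 ± 0.21 (SD, n = 4 hearts), against -0.43, 0.05 and -0.37 in the pool. Of the 8 heart arrays of Gdf2, 3 read exactly 0. None of these genes passed in limma.

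Endothelial transcription factors held 6 of 24 genes lateral and 0 septal in all 4 hearts, with a median of 0.08 and 0 passing in limma. Nr2f2, which specifies veins, had ratios of 0.15, 0.17, 0.31 and 0.28 in hearts 1, 3, 4 and 5, against -0.15 in the pool. Epas1, the hypoxia-inducible factor of endothelium, averaged 0.41 ± 0.32 and the ETS factor Etv2 averaged 0.31 ± 0.23 (SD, n = 4 hearts), against 0.07 and 0.05 in the pool. Of the 8 heart arrays of Etv2, 4 read exactly 0, both of heart 4 among them, and those of heart 5 read -1.31 and 2.01. Nr2f2 averaged 0.42 on Cy5-lateral arrays and 0.03 on Cy3-lateral arrays. Every heart was above the pool for Nr2f2 and Epas1. Of 17 hypoxia response genes, Epas1 among them, 3 were lateral and 0 septal in all 4 hearts.

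Of 13 Notch and arterial genes, 1 was lateral and 0 septal in all 4 hearts, with a median of 0.02. The receptor Notch1 averaged 0.14 ± 0.06, its ligand Dll4 averaged 0.15 ± 0.15 and its target Hey1 averaged 0.14 ± 0.14 (SD, n = 4 hearts), against 0.02, -0.03 and -0.01 in the pool. Of 10 venous and lymphatic genes, Nr2f2 and Aplnr among them, 3 were lateral and 1 septal in all 4 hearts, with a median of 0.15. Of 10 endocardial genes, 2 were lateral and 2 septal in all 4 hearts. Vwf, as the average of both features, was 1 of the septal ones. Tmem100 averaged 0.22 ± 0.16 and Nfatc1, a factor of endocardial cushions, 0.21 ± 0.17, while Cytl1 averaged -0.66 ± 0.72 (SD, n = 4 hearts). In the pool they read 0.08, -0.17 and 0.00. Nfatc1 averaged 0.39 on Cy5-lateral arrays and 0.035 on Cy3-lateral arrays.

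Of 12 genes of capillary fatty acid handling, the group nearest to Fabp4 in function, 2 were lateral and 0 septal in all 4 hearts, with a median of 0.05. Gpihbp1, which holds lipoprotein lipase in capillaries, averaged 0.12 ± 0.11, Cd36, a fatty acid transporter, 0.07 ± 0.09 and Car4, a capillary carbonic anhydrase, 0.25 ± 0.43 (SD, n = 4 hearts), against -0.04, -0.08 and 0.23 in the pool. Car4 rested on heart 4, at 0.83, and averaged 0.05 without it, with hearts 1 and 3 septal. Of 12 genes of activated endothelium and leukocyte adhesion, 1 was lateral and 1 septal in all 4 hearts, as were 1 and 1 of 13 coagulation and vasoactive genes, Procr being the lateral one of these. No gene of these lists passed in limma. Leaving out 1 heart made the mean more than 1.5 times smaller for 12 of the 26 genes named from the lists of vascular genes and pericyte markers, namely Vegfc, Fgf2, Aplnr, Gdf2, Epas1, Dll4, Hey1, Nfatc1, Cytl1, Gpihbp1, Car4 and Cd36.

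**Figure D4:**
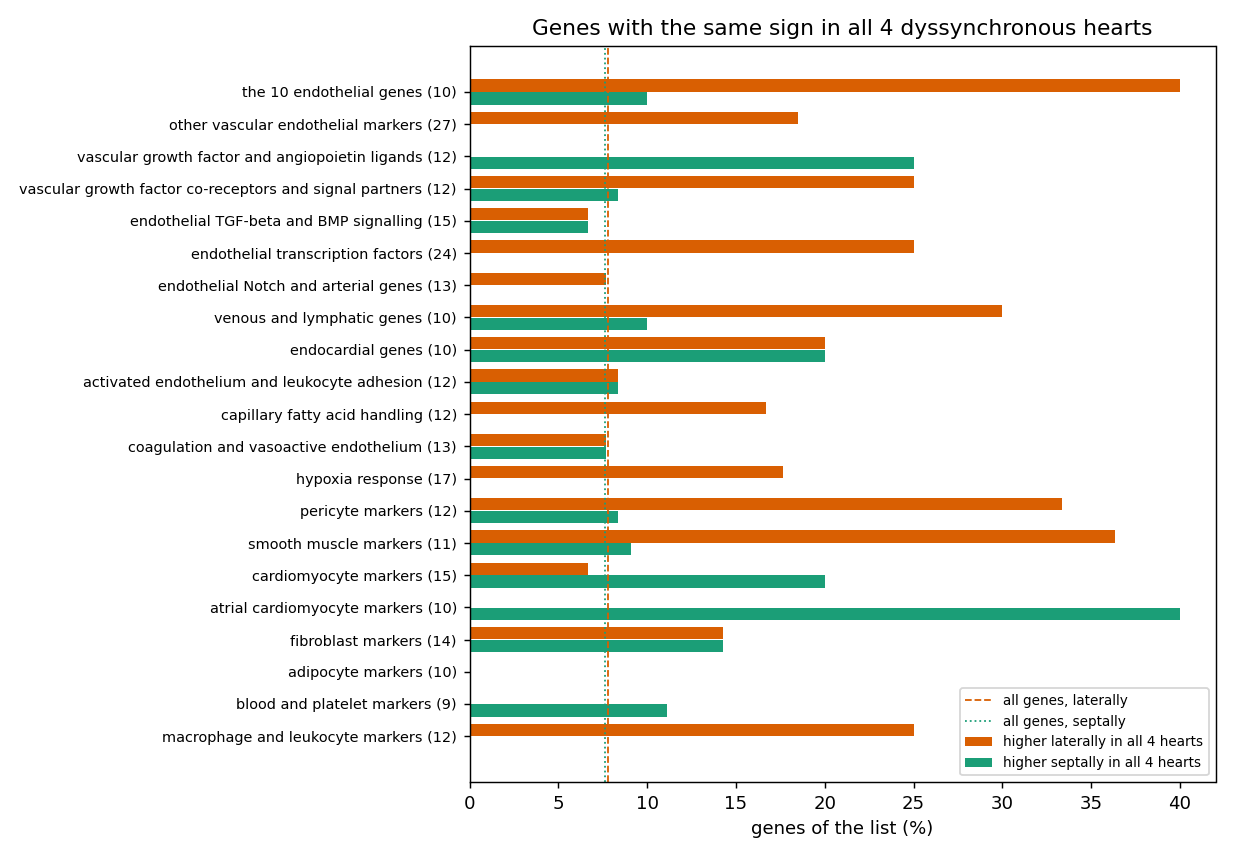
Share of the genes of each list (x axis, percent of those measured, whose number stands in brackets) that were higher laterally (orange) or septally (green) in all 4 dyssynchronous hearts. Vertical lines mark the shares among all genes, 7.8% laterally and 7.63% septally. Of the 10 endothelial genes 4 are lateral. The ligands and the atrial, adipocyte, and blood and platelet markers have 0 laterally.

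Markers of other cells of the wall were set beside these genes. Of 12 pericyte markers, cells that wrap capillaries, 4 were lateral and 1 septal in all 4 hearts, with a median of 0.10. Higd1b averaged 0.25 ± 0.14, Kcnj8 averaged 0.23 ± 0.11 and Notch3 averaged 0.15 ± 0.08 (SD, n = 4 hearts), against 0.25, 0.08 and 0.21 in the pool, and each was lateral on all 8 heart arrays. Of 11 smooth muscle markers 4 were lateral and 1 septal in all 4 hearts, and of 12 macrophage and leukocyte markers 3 were lateral and 0 septal.

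On the septal side were 4 of 10 atrial cardiomyocyte markers, with 0 lateral. Myl7, the atrial myosin light chain, had ratios of -5.18, -3.36, -3.53 and -6.10 in hearts 1, 3, 4 and 5, against -0.12 in the pool. Of 15 cardiomyocyte markers, 1 was lateral and 3 septal in all 4 hearts. For 10 of the 15 all 4 hearts were above the pool, where 17.7% of all genes had that pattern. Of 14 fibroblast markers 2 were lateral and 2 septal, and of 9 blood and platelet markers, which bear on Vwf and Pecam1, 0 were lateral and 1 septal. The part of these cell types in the endothelial ratios was not tested.

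Over the 10 arrays, the genes outside every list that followed the mean of the 10 endothelial genes most closely were Ckap2l (Pearson r = 0.94), Nudt16l2 (0.93), Tmem123 (0.93), Nlrc4 (0.93) and C1qtnf1 (0.93), the highest of 16208 genes. These correlations are a description over arrays that share hearts and dye orientation. The mean they follow includes single far readings, such as 2.43 for Pecam1 on the Cy5-lateral array of heart 5. The part of such readings in the correlations was not tested.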

How the data were processed

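The deposited values, 1 per feature and array, were read as log10 ratios of Cy5 over Cy3. Agilent Feature Extraction 7.5 was used, per the submitters' processing notes. No source used here gives the background correction or the dye normalization. The median was 0 on every array, so centring on the median is likely. The log base and which dye was divided by which are not stated. As deposited, Myl7 changed sign between the swaps of every heart, which already turned values would not do. As deposited, the 2 arrays of hearts 1, 3, 4 and 5 correlated across genes at 0.30, 0.35, 0.28 and 0.17, and those of the pool at 0.30. Turned to the wall, they therefore correlated below 0. The spread of an array (median absolute deviation, log2) was 0.22 to 0.47, and 7.69% to 15.1% of its values were exactly 0. No filter on dim features was applied, as channel intensities were not used here.

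For the log2 scale the deposited values were multiplied by 3.32, then signed by the Cy5 wall label and averaged over dye swaps and over features of a gene. Of 22393 features, 18218 had 1 symbol, 16 several and 4159 none, and 18175 matched the gene table by Entrez number. The test was limma's eBayes (limma 3.58.1 with statmod 1.5.0 in R 4.3.3) on 1 fit of all 4 hearts with the pool, two-sided, with Benjamini-Hochberg adjustment over all genes. The procedure was tested on simulated data.

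The endothelial genes and the other 20 lists were chosen with earlier results of these data known. Named genes are the 10 endothelial genes, genes among the 3 of a list with the smallest p for lateral against septal wall, and the 5 genes closest to the endothelial mean. Alternatives were array centring and spread, a fit of the 10 arrays with a dye term and hearts as random block, 1 dye orientation, values taken as already turned, zeros left out, single probes, other moderation, the hearts alone, the pool's sign turned and each heart left out. The settings of the count of genes lateral in all hearts were added after seeing the data. The patterns that set the sign in the hearts against the sign in the pool were not among the planned rules. Hearts are separate mice, and the pool has no replicate.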

Additional observations from a re-analysis of the deposited data

Results flagged for a closer look

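Kdr was flagged because heart 1, at 0.15, stood apart from the other 3 hearts beyond Dixon's limit for 4 values, as did heart 1 for Vwf feature 10802, at 0.39, and heart 3 for Notch3, at 0.26. Chance flags about 1 in 20 such sets of 4, or 1.95 of the 39 sets examined here, against 3 found; that pattern was not tested further.

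In 8 cases every dyssynchronous heart lay on 1 side of 0 and the control pool on the other, and this difference was tested only as the contrast with the single pool, where limma called 0 genes. Among all genes 5.88% had that pattern. Of the 8, all but Eng and the Vwf feature were named for having one of the smallest p-values for the wall in their list, a choice that favours genes with all hearts on one side of 0. The hearts' mean was 0.10 for Eng, 0.23 for Vwf feature 10802, 0.34 for Procr, 0.15 for Ptprb, 0.23 for Nr2f2, 0.21 for Nfatc1 and 0.12 for Gpihbp1, all lateral, with the pool septal. For Plcg1 the hearts' mean was -0.18 and the pool was lateral.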

How the results depend on the processing

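Of 698 repeats of single-gene values under the alternatives, 648 kept direction and side of the threshold and 49 changed sign. The cause was not tested beyond what each setting leaves out. The 648 do not measure robustness, because several settings could not change a sign. Array centring, the fit with hearts as random block and the other moderation left the single-gene values unchanged. The wall ratios were also unchanged with the hearts alone and with the pool's sign turned. Where limma called 0 genes, no single gene could change its side of the threshold. Limma called 0 genes in every setting apart from the fit of the 10 arrays and the unmoderated test. The former, with a dye term and hearts as random block, called 20 genes for the wall (Myl7 at -4.54 among them). It called 3 for the difference from the pool. The correlation between arrays of the same heart was estimated at -0.049 in that fit. Dye swaps of a heart therefore counted nearly as independent samples, and these calls do not rest on hearts as replicates. The unmoderated test called 1 gene for the difference from the pool. The count of endothelial genes lateral in all hearts was 1 on Cy5-lateral arrays alone, 1 if the deposited values were already turned, and 4 to 5 with a heart left out.

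With Cy5-lateral arrays alone the wall ratio changed sign for Kdr (0.28), Flt1 (-0.059), Tek (0.20), Eng (-0.020), Fgf2 (0.25), Bmp6 (0.028) and Etv2 (-0.33), and with Cy3-lateral arrays alone for Cdh5 (0.62), Tie1 (0.018), Vwf (0.085) and Gdf2 (0.52). Feature 10802 gave 0.23 in place of the Vwf mean. If the deposited values were already turned, the wall ratio was 0.36 for Kdr, -0.17 for Flt1, 0.27 for Tek, -0.089 for Egfl7, -0.12 for Eng, -0.079 for Robo4, 0.42 for Vegfc, 0.56 for Fgf2, 0.34 for Bmp6, -0.075 for Id1, -0.64 for Etv2, -0.044 for Notch1, -0.044 for Gpihbp1 and -0.0006 for Notch3. On that reading Myl7 would average -0.11 and change sign between the dye swaps of every heart. Without 1 heart Cdh5 ran from -0.29 to 0.033, above 0 only without heart 3.

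The difference from the pool changed sign with arrays of a common spread for Kdr (0.064) and Flt1 (-0.020), with Cy5-lateral arrays for Kdr (0.080), Flt1 (-0.048) and Tek (0.032), and with Cy3-lateral arrays for Pecam1 (-0.57) and Egfl7 (0.013). With values already turned it was 0.072 for Cdh5, 0.10 for Kdr, -0.065 for Flt1, 0.10 for Tek and 0.022 for Fabp4. With the pool's sign turned it was -0.37 for Tie1, 0.46 for Egfl7, 0.37 for Fabp4, -0.057 for Eng and -0.58 for Vwf. Without 1 heart it ran from -0.10 to 0.0084 for Kdr, from -0.016 to 0.056 for Flt1 and from -0.095 to 0.0003 for Egfl7. No paired analysis was possible because the pool shares no heart with the dyssynchronous mice.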
